A study of Mus musculus with 4 samples.

Results

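The 39 genes described here encode glucose and lactate transporters, the enzymes of glycolysis and of the pentose phosphate pathway, the enzymes that decide the fate of pyruvate, and the hypoxia-inducible factor (HIF) subunit Hif1a with its oxygen sensors and induced genes. They were chosen by gene symbol and not by their values. All 39 had at least 1 probe on the array and passed the filter on dim probes, out of 18627 genes tested. All 39 had at least 1 probe that was above background in both kinds of cell on every array. Aldoc and Mxi1 each also had a probe that passed the filter through 1 kind alone.

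The arrays compared CD8+ T cells with a high level of the T cell receptor β chain (CD8+TCRβhi) that had been made in culture with cells of the same surface phenotype sorted from the thymus. The cultured cells grew from Lin-Sca1+CD117+ progenitors of bone marrow from C57Bl/6 mice 6 to 8 weeks old, 100000 per culture, kept for 35 days on OP9-DL1 cells, a marrow stromal line that carries the Notch ligand Delta-like 1. Their medium was alpha-MEM with 20% FBS, with Flt3 at 5 ng/ml and IL7 at 1 ng/ml, and the thymic cells came from C57Bl/6 mice 4 to 5 weeks old. Neither kind was treated, and the labels name no other genotype, gate or pooling of animals. Each of 4 arrays paired 1 of 2 in vitro preps with 1 of 2 thymic preps. Arrays 1 and 3 carried in vitro prep 1, arrays 2 and 4 in vitro prep 2, arrays 1 and 2 thymic prep 1, and arrays 3 and 4 thymic prep 2. Thymic RNA was in Cy3 and in vitro RNA in Cy5 on every array, so a dye effect and a difference between the cells cannot be told apart.

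Glycolysis turns glucose into pyruvate, which is either reduced to lactate and exported or oxidised in mitochondria, and the pentose phosphate pathway branches from glucose 6-phosphate to make NADPH and ribose for nucleotides. Dividing thymocytes and activated T cells use both pathways heavily. HIF-1 is a pair of an oxygen-regulated α subunit and Arnt: with oxygen present, prolyl hydroxylases of the Egln family mark the α subunit for destruction through Vhl, and without it HIF-1 induces many glycolytic genes together with Vegfa, Bnip3, Ankrd37 and Egln3 itself.

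Values are log2 ratios of in vitro-derived over thymic cells after loess normalization, so that 1 is a 2-fold higher and -1 a 2-fold lower level in the cultured cells. They are given with the standard error of the limma fit over 2 preps of each kind, and a gene was called at a Benjamini-Hochberg adjusted p under 0.05 over all genes. The labels call the preps different samples and do not say whether they were separate cultures or animals, and what the p-values capture is then only prep-to-prep spread, which may be technical. An exact permutation test of 2 preps against 2 cannot give a p below 0.333, so the calls rest on the spread that limma shares between genes. The share of spots well above background was 63.7% to 65.6% per array for thymic RNA and 66.5% to 70.9% for in vitro RNA. All 8 T and CD8 cell markers (such as Cd3e and Cd8a) were above background in both kinds of cell, with 2 called higher and 5 lower (7 higher with median centring).

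Of the 39 genes, 10 were called higher in the in vitro-derived cells and 15 lower, and 14 were not called. Over all genes tested 51.6% were called, 26.6% higher and 25.0% lower, beside 25.6% and 38.5% of these 39. The median of the 39 was -0.12, against 0.03 over all genes. Differences of at least 2-fold were found for 6 genes (15.4%, against 10.1% of all genes): Egln3, Vegfa and Aldoc were higher, and P4ha1, Eno1 and Ankrd37 lower. These 6 kept their direction and call under median centring of the arrays in place of loess, but Eno1 (-0.97) and Ankrd37 (-0.47) were then under 2-fold. The smaller differences depended on that choice: with median centring 28 of the 39 were called higher and 4 lower, where 58.7% of all genes were called higher and 12.0% lower. Members called the same way under both normalizations numbered 14, of which 10 were higher and 4 lower. Median centring raised the ratio of all 39, so genes higher with loess could only stay higher, and only lower ones could turn.

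**Figure D1:**
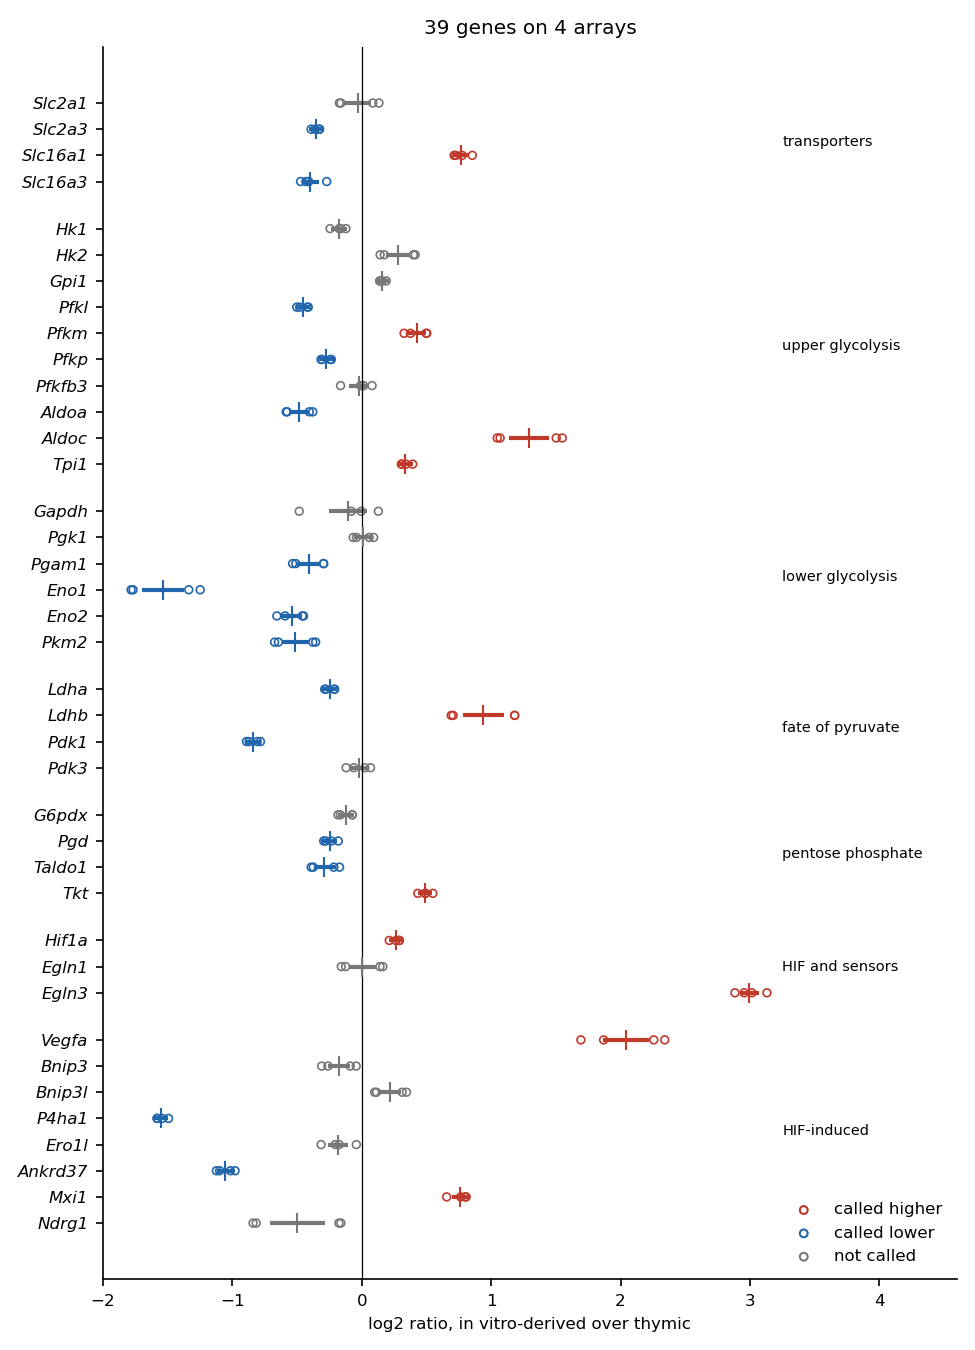
Log2 ratio of in vitro-derived over thymic cells for the 39 genes, in the order of their roles. Open circles are the 4 arrays, the upright tick is their mean and the horizontal bar 1 standard error of the limma fit. Egln3 (3.0) and Vegfa (2.04) lie far to the right, and P4ha1 (-1.55) and Eno1 (-1.53) far to the left.

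The sequence upstream of 4 oxygen-responsive genes is shown because these genes, all known targets of HIF, moved apart from each other: Egln3 rose, P4ha1 and Ankrd37 fell, and Bnip3 was not called. Each is the 250 bases before the gene's annotated start, 5′ to 3′ on the gene's strand, from RefSeq on GRCm38.p6. Capitals mark the core of the HIF binding motif, ACGTG or GCGTG, on either strand, with overlapping matches joined. Egln3 lies at chr12:54203875-54204124 (minus strand), P4ha1 at chr10:59323046-59323295 (plus strand), Ankrd37 at chr8:45999851-46000100 (minus strand) and Bnip3 at chr7:138909507-138909756 (minus strand).
Egln3: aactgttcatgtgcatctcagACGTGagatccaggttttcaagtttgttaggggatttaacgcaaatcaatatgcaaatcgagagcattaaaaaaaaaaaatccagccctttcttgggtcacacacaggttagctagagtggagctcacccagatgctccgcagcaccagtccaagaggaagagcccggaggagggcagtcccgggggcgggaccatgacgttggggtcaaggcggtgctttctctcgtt
P4ha1: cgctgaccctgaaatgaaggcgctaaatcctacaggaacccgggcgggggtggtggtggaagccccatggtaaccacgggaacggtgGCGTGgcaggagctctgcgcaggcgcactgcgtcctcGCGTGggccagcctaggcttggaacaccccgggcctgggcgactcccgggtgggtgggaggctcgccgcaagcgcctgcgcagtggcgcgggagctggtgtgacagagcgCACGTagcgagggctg
Ankrd37: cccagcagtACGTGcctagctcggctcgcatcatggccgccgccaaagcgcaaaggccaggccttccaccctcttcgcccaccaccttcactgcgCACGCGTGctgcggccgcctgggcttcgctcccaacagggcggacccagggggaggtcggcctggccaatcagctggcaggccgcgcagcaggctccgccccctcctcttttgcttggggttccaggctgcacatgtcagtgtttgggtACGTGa
Bnip3: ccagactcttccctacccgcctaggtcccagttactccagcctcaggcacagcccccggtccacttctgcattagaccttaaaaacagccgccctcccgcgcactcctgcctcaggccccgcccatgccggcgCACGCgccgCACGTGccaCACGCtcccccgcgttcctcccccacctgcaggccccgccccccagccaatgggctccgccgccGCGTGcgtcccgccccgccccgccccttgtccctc
The Egln3 stretch holds 1 core, whereas P4ha1 has 3, Ankrd37 has 4 and Bnip3 has 5, some of them overlapping matches on opposite strands. These 4 genes were picked from those with 1 promoter entry each. Vegfa and Mxi1, which rose and are not shown, also held cores within 250 bases before a start. Sites further away were not searched. Promoter entries were found for 36 of the 39 genes, and for all but Slc2a3, Bnip3l and Ndrg1. Over a window of 300 bases, from 250 before to 50 after the start, 42 of 53 promoters of these genes (79.2%) held ACGTG or GCGTG, against 43.8% of the 32851 promoters in the table. ACGTG, with or without GCGTG, was in 54.7% of them and in 19.6% of all promoters. GCGTG, with or without ACGTG, was in 56.6% and 32.4%. Both cores hold CG, and the promoters were not matched for base content. Genes with such matches include some that rose, some that fell and some that were not called. A match of a few letters is a description and shows no binding.

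The oxygen sensors were measured at different ratios, and with median centring Hif1a, Egln1 and Egln3 were all called higher. Egln3, the HIF-induced prolyl hydroxylase, had log2 ratios of 3.02, 2.88, 3.13 and 2.96 on arrays 1 to 4. All 4 arrays were close together, and the level was 7.98-fold higher in the in vitro-derived cells (3.0 ± 0.08, limma adjusted p = 2.9e-05). Egln1, the main oxygen sensor of most cells, had -0.12, 0.16, -0.16 and 0.14. Its arrays with in vitro prep 1 lay below 0 and those with prep 2 above it, and it was not called (0.01 ± 0.11, adjusted p = 0.97), while median centring gave a higher call (0.49, adjusted p = 0.011). Hif1a, the oxygen-regulated subunit, had 0.21, 0.26, 0.29 and 0.29 and was called slightly higher (0.26 ± 0.06, adjusted p = 0.013). That call was lost with the background model fitted on all spots (0.23, adjusted p = 0.058) and with Agilent's processed signals (0.22, adjusted p = 0.059). The transcript level says nothing of the amount of protein, which oxygen controls.

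Vegfa, which encodes an angiogenic growth factor, had log2 ratios of 1.69, 2.26, 1.87 and 2.34. It was 4.11-fold higher (2.04 ± 0.18, adjusted p = 0.00066), and its 3 probes were each called, at 1.60, 2.02 and 2.50. With Agilent's processed signals its log2 ratio was 2.80. Mxi1, a Max-binding repressor that opposes Myc, had 0.77, 0.80, 0.66 and 0.81 and rose (0.76 ± 0.06, adjusted p = 0.00055). Its 2 probes gave 1.31 and 0.20, both called higher, so the size depends on the probe. The probe at 0.20 was not above background in both kinds of cell on every array.

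P4ha1, a collagen prolyl 4-hydroxylase subunit, fell on every array, with -1.54, -1.58, -1.58 and -1.49. It was 2.93-fold lower (-1.55 ± 0.05, adjusted p = 5.5e-05), and its 2 probes gave -1.50 and -1.60. Ankrd37, an ankyrin repeat gene used as a marker of HIF activity, had -1.01, -1.10, -0.98 and -1.12 and was 2.08-fold lower (-1.05 ± 0.06, adjusted p = 0.00023). So of the 6 genes of at least 2-fold, those counted here among the HIF genes went both ways, with Egln3 and Vegfa higher and P4ha1 and Ankrd37 lower. Aldoc and Eno1 were counted with glycolysis.

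The remaining members counted among the HIF genes were not called. Ndrg1, a stress-response gene, had -0.82, -0.18, -0.84 and -0.16, low with in vitro prep 1 and near 0 with prep 2 (-0.50 ± 0.21, adjusted p = 0.11). With in vitro prep 2 left out it was -0.83, but the thymic preps alone then set the spread. Bnip3 and Bnip3l, mitophagy receptors, gave -0.18 ± 0.09 and 0.22 ± 0.09, and Ero1l, an oxidase of protein folding in the endoplasmic reticulum, gave -0.18 ± 0.08 (adjusted p = 0.16, 0.094 and 0.12). Together the 11 HIF genes had 4 called higher, 2 called lower and 5 not called, with a median of 0.01.

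Transporters moved in different directions. Slc16a1, which carries lactate and pyruvate (MCT1), had 0.78, 0.71, 0.85 and 0.73 and rose 1.70-fold (0.77 ± 0.06, adjusted p = 0.00052), with its 3 probes at 0.51, 0.81 and 0.98. Slc16a3, the lactate exporter MCT4, had -0.41, -0.27, -0.47 and -0.43 and was called lower (-0.40 ± 0.07, adjusted p = 0.0069), but was near 0 with median centring (0.04, adjusted p = 0.69). Slc2a1, the glucose transporter GLUT1, had 0.09, -0.17, 0.13 and -0.16 and was not called (-0.03 ± 0.10), while median centring gave a higher call (0.66, adjusted p = 0.0017).

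Slc2a3, the glucose transporter GLUT3, was called lower (-0.35 ± 0.05, adjusted p = 0.0041), but its 2 tested probes disagreed. One probe gave -0.93, -0.98, -0.94 and -0.92 on the 4 arrays (-0.94 ± 0.06), and the other gave 0.27, 0.26, 0.16 and 0.27 (0.24 ± 0.06), each called. The array files place the latter on chromosome 17 and the former on chromosome 6, and without it Slc2a3 was -0.94. The gene's mean lost its call with Agilent's processed signals (-0.12, adjusted p = 0.31) and with median centring (-0.03, adjusted p = 0.67).

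In upper glycolysis 3 of 10 genes were called higher and 3 lower, with 4 not called and a median of 0.07. Aldoc, the aldolase best known from brain, had 1.05, 1.50, 1.07 and 1.55 and was 2.45-fold higher (1.29 ± 0.16, adjusted p = 0.002). With Agilent's processed signals its log2 ratio was 2.29. Both its probes were called, and arrays with in vitro prep 2 were the high ones. The dimmer probe was not above background in both kinds of cell on every array, and without it Aldoc was 1.15. Aldoa, the aldolase of muscle and most cells, had -0.38, -0.58, -0.41 and -0.58 and was called lower (-0.49 ± 0.08, adjusted p = 0.0055), though with median centring it was called higher (0.60). The 3 phosphofructokinase genes, whose enzyme commits glucose to glycolysis, split: Pfkm rose (0.43 ± 0.07), Pfkl fell (-0.45 ± 0.06) and Pfkp fell (-0.28 ± 0.06), and with median centring Pfkl turned to 0.11 without a call and Pfkp was called higher (0.20). One of the 3 Pfkp probes carried its change (-0.73, against -0.09 and -0.01 for the others).

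Tpi1, triose phosphate isomerase, rose (0.34 ± 0.06, adjusted p = 0.0059). Hk1 and Hk2, the hexokinases that trap glucose in the cell, gave -0.18 ± 0.06 and 0.28 ± 0.09 and missed the threshold (adjusted p = 0.058 and 0.056). All 5 Hk1 probes lay below 0, and 3 were called lower. Hk1 was called lower with Agilent's processed signals (-0.28, adjusted p = 0.042) and higher with median centring (0.30, adjusted p = 0.0076). Gpi1, glucose 6-phosphate isomerase, gave 0.16 ± 0.05 (adjusted p = 0.06), with probes at 0.37, called higher, and -0.05, not called. Pfkfb3, which makes the activator of phosphofructokinase, gave -0.02 ± 0.08, with 1 of 3 probes called lower (-0.30).

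Lower glycolysis had 4 of 6 genes called lower and 2 not called, with a median of -0.46. Eno1, the main enolase of most cells, had -1.78, -1.25, -1.77 and -1.34 and was 2.89-fold lower (-1.53 ± 0.16, adjusted p = 0.0012). Like Egln3 and Ankrd37, Eno1 was measured by 1 probe. Its ratios were lower on both arrays with in vitro prep 1 than on both with prep 2. Eno2, the neuronal enolase, fell on both of its probes (-0.54 ± 0.08, adjusted p = 0.0032), and was -1.20 with Agilent's processed signals, past 2-fold. Pkm2 (pyruvate kinase, now named Pkm) and Pgam1 (phosphoglycerate mutase) were called lower (-0.51 ± 0.11 and -0.41 ± 0.09), but with median centring Pkm2 was 0.32 without a call and Pgam1 was called higher (0.52). Pgk1, phosphoglycerate kinase, had -0.04, 0.09, -0.07 and 0.06 and was not called (0.01 ± 0.07), while median centring gave a higher call (1.01, adjusted p = 3e-04).

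Gapdh was measured by 1 dim probe, named in the array files by the gene's NCBI number, which was matched to Gapdh after the data had been seen. It had -0.48, -0.08, -0.0037 and 0.13, the widest spread between thymic preps among the 39, and was not called (-0.11 ± 0.15). Gapdh has many near-identical copies in the mouse genome, which a short probe may not tell apart.

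**Figure D2:**
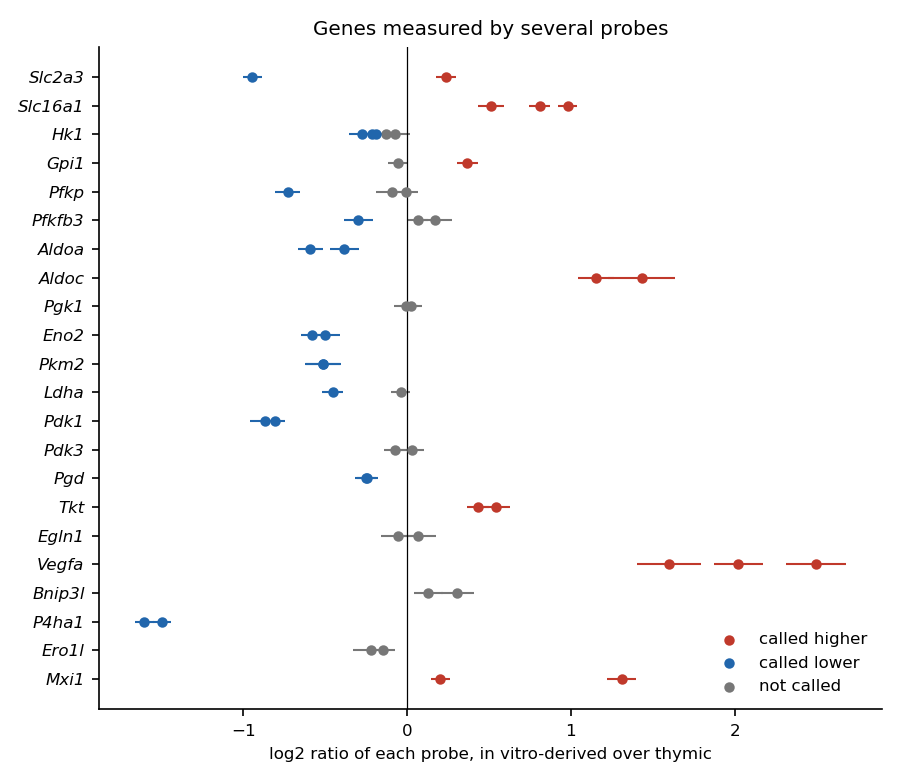
Log2 ratio of each tested probe, with 1 standard error, for the 22 genes measured by 2 or more probes. Probes of Slc2a3 were called in opposite directions (-0.94 and 0.24), while the 3 Vegfa probes, the 2 P4ha1 probes and the 2 Aldoc probes lie on the same side of 0.

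At the fate of pyruvate, the lactate dehydrogenase subunits separated. Ldhb, the subunit that favours pyruvate formation, had 1.18, 0.71, 1.18 and 0.69 and was 1.92-fold higher (0.94 ± 0.16, adjusted p = 0.0065). Ldha, the subunit that favours lactate, had -0.29, -0.21, -0.28 and -0.21 and was called slightly lower (-0.25 ± 0.06, adjusted p = 0.018). The 2 Ldha probes differed, at -0.04 and -0.45, and the brighter one was not called. With median centring Ldha was called higher (0.87) and Ldhb remained higher (1.78). The direction of Ldha thus depends on the normalization. That of Ldhb could not turn, because median centring raised the ratio of every member.

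Pdk1, a kinase that inhibits pyruvate dehydrogenase, had -0.87, -0.78, -0.89 and -0.81 and fell 1.79-fold (-0.84 ± 0.06, adjusted p = 0.00036), on both of its probes. With median centring it was -0.13 and not called (adjusted p = 0.19). Pdk3, a related kinase, was not called (-0.02 ± 0.07).

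Of the 4 pentose phosphate enzymes, Tkt (transketolase, of the non-oxidative branch) rose, with 0.43, 0.49, 0.55 and 0.49 (0.49 ± 0.06, adjusted p = 0.0016). Taldo1 (transaldolase) and Pgd (6-phosphogluconate dehydrogenase) were called lower by small amounts (-0.29 ± 0.08 and -0.25 ± 0.06), and G6pdx, the entry enzyme, was not called (-0.12 ± 0.06, adjusted p = 0.15). With median centring all 4 were called higher, at 0.82, 0.44, 0.56 and 1.22 for Taldo1, Pgd, G6pdx and Tkt. The Taldo1 call was lost with the background model fitted on all spots (adjusted p = 0.093), where Pgd lay at the threshold (adjusted p = 0.05).

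Many of these genes are bright, and the ratio moved with brightness. When all genes were cut into 10 bins of equal size by intensity, their median ratio under median centring went from -0.15 in the dimmest bin to 0.89 in the brightest, and 17 of the 39 lay in the brightest 2 bins. Loess brought the median of every bin to between -0.01 and 0.05, which assumes that genes of like intensity have no shared difference. Under median centring the share of higher among called genes was 83.1% over all genes, against 51.5% with loess. Set against the median of their own bin under median centring, 24 of the 39 lay below it, and Egln3, Vegfa and Aldoc lay above it by 3.01, 2.02 and 1.25. By role, median centring gave 9 of 10 upper glycolysis genes called higher, 2 higher and 2 lower of 6 in lower glycolysis, and 5 higher and 2 lower among the 8 HIF-induced genes. The genes called lower with loess and higher with median centring were Pfkp, Aldoa, Pgam1, Ldha, Pgd and Taldo1. A further 12 were not called with loess and called higher with median centring, among them Pgk1 (1.01), Bnip3l (0.94), Gpi1 (0.87), Hk2 (0.83) and Egln1 (0.49).

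**Figure D3:**
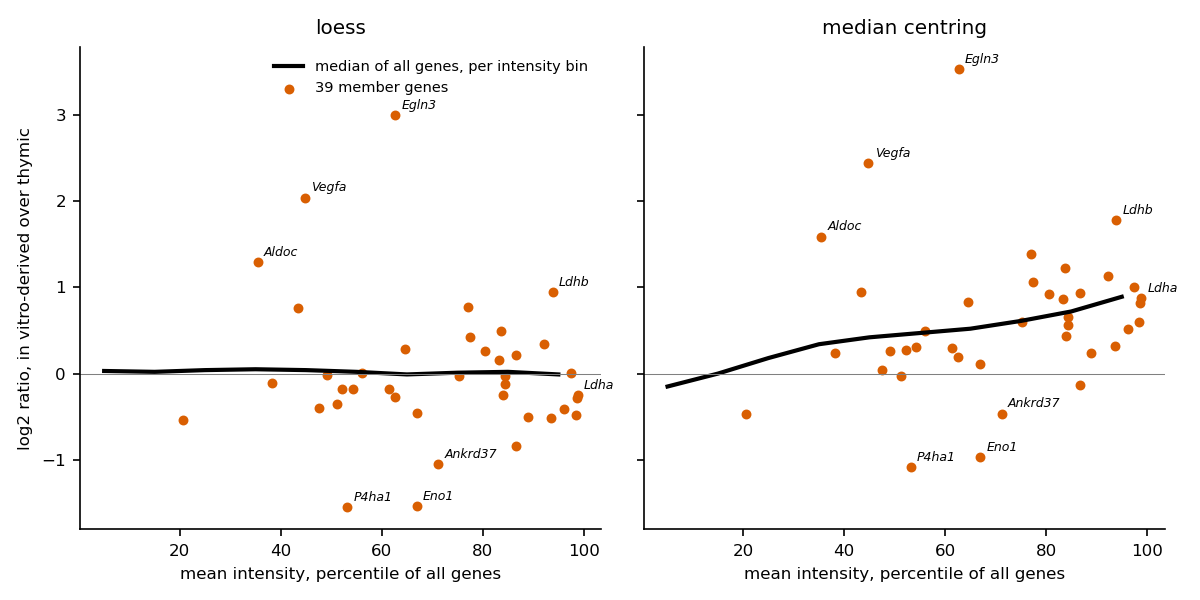
Log2 ratio against mean intensity (percentile among all genes tested) for the 39 genes, with loess on the left and median centring on the right. The black line is the median of all genes in each of 10 intensity bins: it stays near 0 with loess and climbs to 0.89 with median centring, and the bright genes climb with it, while Egln3, Vegfa, P4ha1, Eno1 and Ankrd37 keep their sides.

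The in vitro preps differed from each other more than the thymic ones. Over the 39 genes the median size of the difference was 0.138 between in vitro preps and 0.03 between thymic preps, beside 0.094 and 0.049 over all genes. Differences over 0.2 were seen for 13 of the 39 genes between in vitro preps and for 1, Gapdh, between thymic preps. Over all 18627 genes these counts were 3704 and 820. Prep 2 was the higher one for Ndrg1 (by 0.66), Vegfa (0.52), Eno1 (0.48) and Aldoc (0.47), and the lower one for Ldhb (-0.48) and Slc2a1 (-0.28). Prep 2 was above prep 1 for 26 of the 39 (66.7%), against 51.7% of all genes. With 2 preps these differences have no test.

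Several small calls were lost when a prep was left out. Without thymic prep 1, Slc2a3, Pfkm, Pfkp, Tpi1, Pgam1, Pkm2, Ldha, Pgd, Taldo1 and Hif1a lost their calls (limma adjusted p from 0.057 for Pkm2 to 0.18 for Ldha). Without thymic prep 2 the same genes did so, with Slc16a3 (-0.34, adjusted p = 0.097) in place of Pfkm, up to an adjusted p of 0.24 for Pgd. Pgd also lost its call without in vitro prep 1 (-0.23, adjusted p = 0.054), and Taldo1 without in vitro prep 2 (-0.19, adjusted p = 0.061). Some calls were gained without an in vitro prep: Hk2 was 0.41 without prep 1, and Bnip3 -0.29, Bnip3l 0.33 and Ero1l -0.26 without prep 2. The thymic preps alone then set the spread, and they lay closer together than the in vitro ones. With each prep or array left out in turn, Egln3, Vegfa and Aldoc stayed higher (lowest values 2.92, 1.78 and 1.06). Eno1, P4ha1 and Ankrd37 stayed lower (values nearest to 0 of -1.29, -1.52 and -1.0).

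**Figure D4:**
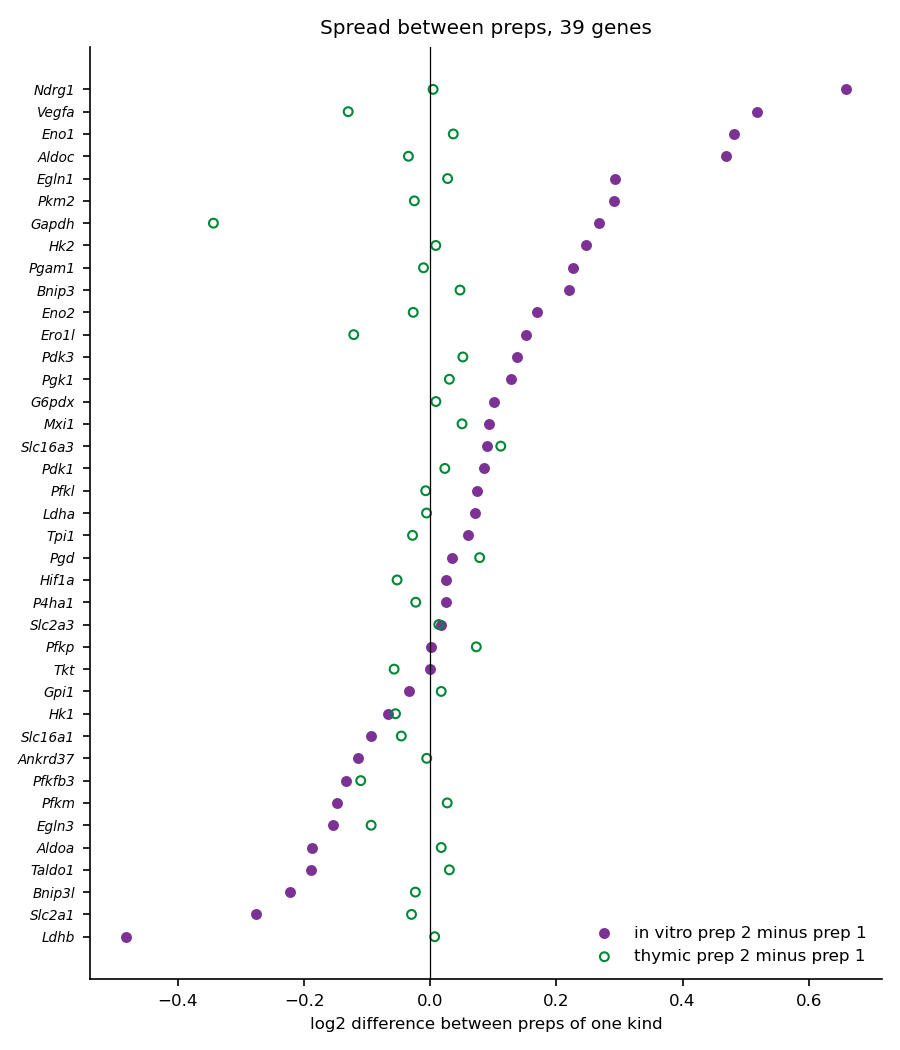
Difference between prep 2 and prep 1 for each of the 39 genes, in log2 units, for in vitro preps (filled) and thymic preps (open). In vitro preps reach 0.66 at Ndrg1 and -0.48 at Ldhb, and thymic preps stay within 0.2 apart from Gapdh.

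Markers of other cells and of division moved with these comparisons. Of 17 tested stroma markers 11 were above background in both kinds of cell on at least 1 array. Of these, 9 were called higher in the in vitro-derived cells and 1, Vim, lower (not called with median centring). The other 6 (Col6a1, Thbs1, Lox, Fbn1, Postn and Timp3) were not well above background in thymic cells and passed the filter through the in vitro channel alone, and 5 of them were called higher. The summed log2 level of all 17 was 14.94 to 15.43 on the in vitro side and 15.57 to 15.84 on the thymic side, and without Vim, left out after the values were seen, 13.29 to 13.63 and 11.39 to 11.55. Pdgfra, Dcn and Lum were not well above background in either. Of 12 proliferation markers 11 were called higher, with a median of 1.37, and summed levels of 17.51 to 17.71 against 16.31 to 16.36. In vitro prep 2 was above prep 1 for 16 of the 17 stroma markers and 11 of the 12 proliferation markers. Their part in the differences of the 39 genes was not tested, and in bulk RNA fewer cells of a type and less RNA per cell cannot be told apart.

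Other genes of the same pathways were counted by lists. Of 35 further genes of glycolysis and pyruvate 11 were called higher and 7 lower (median 0.01). Fbp1, which reverses the phosphofructokinase step, had the largest difference there, 19.3-fold higher (4.27 ± 0.17, adjusted p = 7.7e-05). Slc2a4, the insulin-responsive glucose transporter, was not well above background in thymic cells and was 3.31-fold higher in the in vitro-derived cells (limma adjusted p = 0.00024). That fold is an estimate against a thymic level not well above background, not a lower limit, and is open to dye bias.

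Of 8 further pentose phosphate genes 4 were higher and 1 lower (median 0.28). Pgls, the lactonase of the oxidative branch, rose (1.08 ± 0.05). Tktl1, a transketolase-like gene, was 2.38-fold higher (limma adjusted p = 0.00013), an estimate against a thymic level not well above background.

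Of 29 further HIF pathway and hypoxia genes 12 were higher and 6 lower (median 0.08). P4ha2, the other collagen prolyl 4-hydroxylase α subunit here, was 8.75-fold higher (3.13 ± 0.16, adjusted p = 0.00014), in the opposite direction to P4ha1. Hmox1, heme oxygenase, Ccng2, a cyclin, and Tfrc, the transferrin receptor, rose (1.56, 1.29 and 1.09), and Ddit4, an inhibitor of mTORC1, and Rora, a nuclear receptor, fell (-1.64 and -1.34). Of the HIF machinery, Egln2 was called higher (0.23 ± 0.06), and Arnt (-0.01 ± 0.06), Epas1 (0.08 ± 0.07) and Hif1an (-0.16 ± 0.08) were not called.

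Of 17 regulators linked to Myc, Mondo and mTOR 3 were higher and 7 lower (median -0.02). Mycn rose (1.70 ± 0.08) and Txnip, a glucose-responsive brake on glucose uptake, fell (-1.26 ± 0.15), while Myc was 0.35 ± 0.17 and not called (adjusted p = 0.14). With median centring the counts of these 4 further lists moved upwards, to 20 higher and 2 lower for glycolysis and pyruvate, 7 and 1 for pentose phosphate, 21 and 4 for HIF and 8 and 2 for the regulators. The named genes of these further lists that were called kept their direction and call under it. However, the fallers Ddit4 (-0.64), Rora (-0.93) and Txnip (-0.59) were then under 2-fold. Myc and Arnt were called higher with median centring (1.09 and 0.40).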

How the data were processed

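Total RNA of 2 thymic and 2 in vitro preps (Trizol) was amplified from 1 ug and labelled, per the labels' protocols. The authors deposited 1 scanner file per array, with spot intensity values on a linear scale (per the file headers, by Agilent's Feature Extraction, version 9.5.1.1), and a series table of log10 ratios. That table equalled the scanner's own log10 ratio of Cy5 over Cy3 within 0.0001 for 99.4% to 99.5% of probes, and the median of each column was 0. The same software stands in the submitters' processing notes. For the array's probes, no genome build is named in the files used.

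Mean signals were background corrected with normexp (offset 50) after marked spots (133 to 187 per array) were left out, then loess normalized (control spots weighted 0) in limma 3.58.1 (R 4.3.3). A probe was tested if either channel was well above background on every array (27234 of 41174), and a gene was the mean of its tested probes. The 4 log2 ratios were turned into 4 prep values by least squares, because each prep is on 2 arrays, and tested with lmFit and eBayes (2 residual and 3.04 prior degrees of freedom), two-sided. The fit was also run on simulated data in which few genes differed and both kinds of prep varied alike. The real data differ on both points, so that run does not vouch for the calls here. Slide and scan were shared by all arrays. The number of arrays limits the precision.

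The members, the gene lists and the handling of marked spots were chosen with earlier results of these data known. All members are named. Of further pathway genes, those called with a log2 difference of at least 1 and the same sign on all 4 arrays are named, at most 6 per list, with Epas1, Arnt, Egln2, Hif1an and Myc whatever their values. The alternatives were other background models, normalizations, signals, filters, probe and name rules, and leaving out preps and arrays. The lists of B cell, myeloid and NK markers had 1, 3 and 1 genes called higher and 1, 1 and 3 lower, and the erythroid and thymic epithelium lists had 1 call each, higher, the latter of a gene above background in 1 channel alone.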

Additional observations from a re-analysis of the deposited data

How the results depend on the processing

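Of the alternatives run, only median centring in place of loess turned a called direction. It gave 28 genes called higher and 4 lower, and a median of 0.56. Genes whose sign turned were Slc2a1 (0.66), Slc16a3 (0.04), Hk1 (0.30), Pfkl (0.11), Pfkp (0.20), Pfkfb3 (0.26), Aldoa (0.60), Pgam1 (0.52), Pkm2 (0.32), Ldha (0.87), Pdk3 (0.59), G6pdx (0.56), Pgd (0.44), Taldo1 (0.82), Bnip3 (0.31) and Ero1l (0.27), where either value was called. Leaving out a prep or an array gave 5504 to 9558 genes called over all genes, against 9615, with 7 to 11 of the 39 higher and 7 to 17 lower, and a median of -0.17 to -0.09. The lowest counts came without thymic prep 1 (7 higher, 8 lower) or thymic prep 2 (8 higher, 7 lower), where 10 of the 39 lost their call each time. The lone thymic prep is then assumed to vary like the in vitro ones, which lay further apart than the thymic ones. Without in vitro prep 1 or 2 most calls were kept, but the thymic preps alone then set the spread. Calls kept in that way say nothing of the spread between in vitro preps. The labels do not say whether preps of the same number belong together. Deviations of same-numbered preps had a correlation of 0.12 across all genes and -0.1 across the 39, which cannot settle it. With prep number as a replicate block 9833 genes were called, 11 of the 39 higher and 16 lower, with a median of -0.12, and Hk2 and Ndrg1 gained a call. The cause of these losses, and of the change under median centring, was not tested. Agilent's processed signals and the deposited table gave larger differences for Aldoc (2.29 in both), Vegfa (2.80 and 2.79) and Eno2 (-1.20 in both). Keeping the marked spots also put them into the background model, and gave 6829 genes called, close to the 6824 with that model fitted on all spots. Aquantile normalization leaves the log ratios as they are, so it could not change a call and says nothing of robustness. The filters on dim probes and updated gene names changed no call of the 39.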
